A study of Mus musculus with 12 samples.

Results

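Hair follicle stem cells from old mice were compared with those from young mice in telogen, the phase of the hair cycle in which follicles rest. The comparison rests on 6 of the 12 libraries of the study, 3 from old and 3 from young untreated skin, and covers the whole transcriptome. The other 6 libraries came from young and old mice in early anagen, when growth begins, brought on by depilation. All mice carried the K15-EGFP Tg/+ genotype, a transgene in which the keratin 15 promoter drives a green fluorescent protein. Cells were sorted from dissociated skin for high EGFP, high integrin alpha 6 (ITGA6) and absence of the surface protein that the labels write as ScaI, and the submitters describe the product as hair follicle stem cells and hair germ. The sources used here state neither the ages in weeks nor whether each library had its own mouse or pool of mice, so the p-values measure the spread between these libraries, part of which may be technical. The columns marked nonpk were read as untreated telogen, which is an inference.

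In telogen the follicle stem cells sit in 2 places, the bulge and, just below it, the hair germ, which is the first part to divide when a new hair cycle starts. Their rest is held by bone morphogenetic protein (BMP) signalling and by transcription factors such as Lhx2, Nfatc1 and Foxc1. Wnt and hedgehog signals and BMP inhibitors move them into growth. The bulge cells also make much of their own basement membrane and matrix, to which the arrector muscle, nerves and melanocyte stem cells attach. Above the bulge lie the junctional zone, the sebaceous gland and its duct, whose cells make lipids. Sca-1, the protein that ScaI is read to mean here, is carried by cells of the epidermis and the upper follicle.

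The 6 telogen libraries held between 7992474 and 8478442 counts each. Levels are given as CPM, the usual count relative to a library's total, with the totals adjusted by TMM factors, and differences as log2 fold changes, old minus young, so a positive value means higher in old. Genes of the sort and of the bulge were well expressed at both ages. Krt15, whose promoter drives the reporter, was at 5675, 5130.3 and 7319.6 CPM in young replicates 1 to 3 and 9705, 6819 and 7571 CPM in old replicates 1 to 3 (0.41, adjusted p = 0.21). Itga6 was at 357, 296 and 279 CPM in young and 333, 286 and 310.0 CPM in old (-0.0035, adjusted p = 1). Ly6a, the gene of Sca-1, did not exceed 1.66 CPM and was not tested. The libraries numbered 1 stood apart. On the first principal component of the 6 libraries, which carried 30.2% of the variance, young replicates lay at -47.7, -42.5 and -40.4, and old replicates 1, 2 and 3 at 90.1, 9 and 31.3. The second component (22.6%) put young replicate 1 at 57.4 and old replicate 1 at 50.2, the others lying between -53.4 and 7.99. Each result was therefore also computed without replicate 1 of both groups, which leaves 2 libraries against 2.

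Of 55359 genes in the table, 16011 had enough counts to be tested, and 330 of them, 2.06%, passed the threshold of an adjusted p of 0.05. Among them 165 were higher and 165 lower in old, 1.03% of tested genes each, and in 322 the 3 old libraries did not overlap the 3 young ones. Non-overlap by itself was found for 16.8% of all tested genes (8.66% higher and 8.14% lower in old), and an unadjusted p under 0.05 for 13.8% (6.9% and 6.91%). Lower genes differed by more than higher ones. The median log2 fold change was 1.08 among the genes called higher, of which 18 were beyond 2, and -1.59 among those called lower, of which 60 were beyond -2. Genes called lower were also less abundant. FPKM is the count relative to exonic length and library total. Its median, in the age group where each gene was higher, was 7.92 for genes called lower and 21.7 for genes called higher. Whether abundance accounts for the larger differences was not tested. The median over all tested genes was 0.01.

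**Figure D1:**
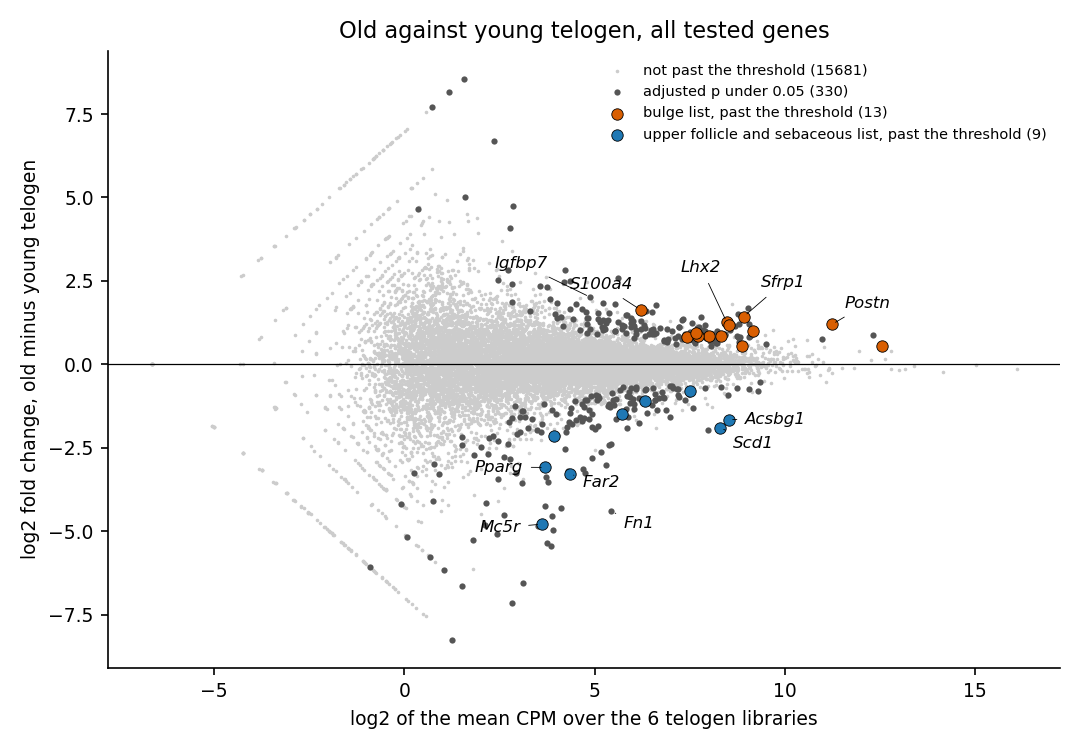
Log2 fold change, old minus young telogen, against the log2 of the mean CPM over the 6 telogen libraries, 1 point per tested gene. Dark points are the 330 genes past the adjusted p of 0.05, and the 13 bulge genes (orange) and the 9 upper follicle and sebaceous genes (blue) past it are drawn larger. Orange points all lie above 0 and blue points all lie below it.

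Single libraries weighed heavily on these counts. With young replicate 1, young replicate 2, old replicate 1 or old replicate 3 left out, 77, 78, 71 and 93 genes were called higher and 58, 77, 88 and 67 lower. Leaving out young replicate 3 gave 167 higher and 264 lower, and leaving out old replicate 2 gave 192 and 167. Without replicate 1 of both groups 96 genes passed (45 higher and 51 lower, or 0.281% and 0.319% of those tested), of which 80 were among the 330. All 330 kept the sign of their log2 fold change there, and all 330 had an unadjusted p under 0.05. The 330 were chosen on these same libraries, and the groups were apart in 322. Their sign was thus nearly fixed beforehand, and neither count is an independent check. Old replicate 1 was the highest old library in 106 of the 165 genes called higher, and young replicate 1 the highest young library in 113 of the 165 called lower. In the other age group, young replicate 1 was the highest in 55 of the genes called higher. Likewise old replicate 1 was the highest in 53 of those called lower. The same counts over all tested genes were not made.

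A share of the bulge stem cell genes was higher in old telogen. Of 39 genes on the list, all tested, 13 were higher and 0 lower by edgeR, against 1.03% of all tested genes in each direction. At an unadjusted p under 0.05 the counts were 24 and 0, and DESeq2 gave 14 and 0, limma voom 15 and 0. The median log2 fold change of the list was 0.55 and 32 of its members were above 0. Their summed level ran from 21342 to 25639 CPM in the young and from 28465 to 38751 CPM in the old libraries. In a bulk sample, a change in the number of cells of a type and a change in RNA per cell cannot be told apart, here or for the lists that follow. The members of all these lists were chosen with earlier results of these data known. Their counts, set against the share of all tested genes, are thus not an independent check.

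Transcription factors made up 4 of the 13. Lhx2, a LIM homeobox factor that keeps bulge cells in place and quiescent (ENSMUSG00000000247, GRCm39 chromosome 2, 38229293 to 38259745), was at 243, 180.1 and 205 CPM in young replicates 1 to 3 and 548, 394 and 558 CPM in old replicates 1 to 3. Every old library was above every young one, with old replicates 1 and 3 close together and old replicate 2 lower (log2 fold change 1.25, SE 0.19, adjusted p = 0.0029). Nfatc1, the calcineurin-dependent factor that holds bulge cells at rest, was at 299, 360.4 and 480.4 CPM in young and 784, 640.0 and 836 CPM in old (log2 fold change 0.99, SE 0.20, adjusted p = 0.016). The groups stayed apart although young replicate 3 was well above young replicate 1. Tbx1, a T-box factor needed for self-renewal of these cells, was at 121, 133 and 163 CPM in young and 283, 297 and 217 CPM in old (0.94, SE 0.16, adjusted p = 0.0043). Runx1, which promotes the activation of the hair germ and bulge, was at 148, 136 and 161 CPM in young and 277, 278 and 249.6 CPM in old (0.85, SE 0.18, adjusted p = 0.016), with little spread within each age. Other factors of the list did not pass, namely Sox9 (0.48, adjusted p = 0.15), Vdr (0.49, adjusted p = 0.12), Tcf7l1 (0.92, adjusted p = 0.11) and Foxc1 (-0.13, adjusted p = 0.85).

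**Figure D2:**
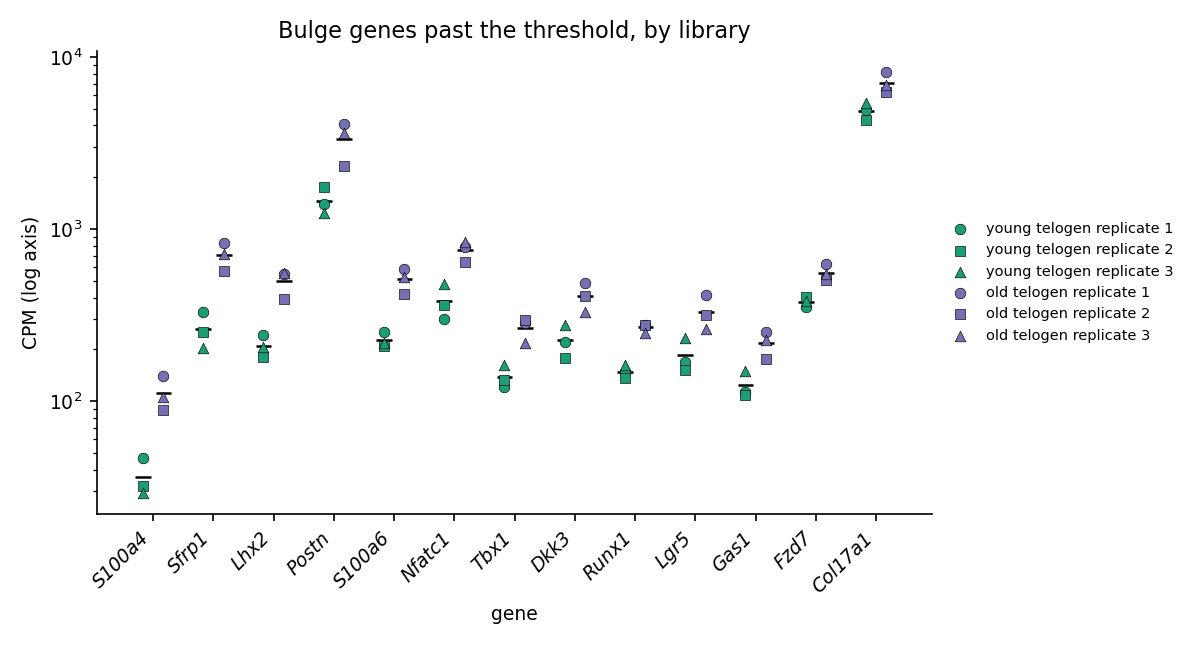
CPM on a log axis of the 13 bulge genes past the threshold, in order of log2 fold change. Green marks are young and violet marks old telogen libraries, the marker shape gives the replicate number, and bars are group means (n = 3). For each of the 13 genes the lowest old mark lies above the highest young one.

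Among surface and secreted products, Sfrp1 had the largest difference past the threshold. This secreted Wnt antagonist (ENSMUSG00000031548, GRCm39 chromosome 8, 23901518 to 23939648) was at 328, 251 and 204 CPM in young replicates 1 to 3 and 824, 570.1 and 719.8 CPM in old replicates 1 to 3 (log2 fold change 1.43, SE 0.24, adjusted p = 0.0045). Its lowest old library was well above its highest young one. Dkk3, a secreted protein of the Dickkopf family, was at 221, 179 and 279 CPM in young and 488, 409 and 330.4 CPM in old (0.86, SE 0.18, adjusted p = 0.019). Postn, the matricellular protein periostin, was at 1389.7, 1767 and 1233 CPM in young and 4098, 2323 and 3626 CPM in old (1.19, SE 0.24, adjusted p = 0.014), old replicate 2 being much the lowest of its group. Lgr5, the R-spondin receptor that marks the lower bulge and hair germ, was at 168, 152 and 232 CPM in young and 412, 318 and 263 CPM in old (0.84, SE 0.19, adjusted p = 0.031). Here the young group came close to the old one, young replicate 3 lying just under old replicate 3. Fzd7, a Wnt receptor, came to 0.56, adjusted p = 0.027, and Gas1, a cell surface partner of hedgehog ligands, to 0.82, adjusted p = 0.014. The calcium-binding proteins S100a6 (227 ± 23.1 CPM in young and 511 ± 84.7 CPM in old telogen; 1.17, SE 0.19, adjusted p = 0.0038) and S100a4 (36.05 ± 9.38 against 112 ± 26.3 CPM; 1.63, SE 0.37, adjusted p = 0.027) were also higher. Col17a1, the transmembrane collagen of hemidesmosomes whose loss in aged follicle stem cells is a known subject of study, was at 4894, 4293 and 5371 CPM in young and 8199.7, 6239 and 6831 CPM in old (log2 fold change 0.55, SE 0.13, adjusted p = 0.043). It did not pass in the fit of the 6 telogen libraries alone, in the fit of 12 libraries with a replicate block or after quantile normalization. Cd34, the classical surface marker of the mouse bulge, was at 466, 349 and 428 CPM in young and 709, 581 and 569 CPM in old without overlap, and did not pass (0.58, adjusted p = 0.33).

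The bulge count depended on single libraries. It was 5 without young replicate 1, 5 without young replicate 2, 4 without old replicate 1 and 7 without old replicate 3, and 14 without young replicate 3 or old replicate 2. Without replicate 1 of both groups 3 of the 39 passed, Lhx2 (1.29, adjusted p = 0.02), Sfrp1 (1.49, adjusted p = 0.021) and S100a6 (1.14, adjusted p = 0.029), and the median of the list was 0.29. Lhx2, Sfrp1, S100a6 and Tbx1 passed with any 1 of the 6 libraries left out.

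The promoters of Lhx2, a factor that passed under every setting tried, and of S100a4, the bulge gene past the threshold with the largest difference, are shown to set the genes beside their start sites. The 250 bases before the start are printed as RefSeq gives them for GRCm38.p6, read along the gene's strand, with matches on either strand to the CCAAT box, to the TATA box letters TATAAA and to the GC box core GGGCGG in capitals. They lie at chr2:38339031-38339280 on the plus strand and chr3:90603520-90603769 on the plus strand, and Lhx2 has 2 starts in the table, of which the first is given.
Lhx2: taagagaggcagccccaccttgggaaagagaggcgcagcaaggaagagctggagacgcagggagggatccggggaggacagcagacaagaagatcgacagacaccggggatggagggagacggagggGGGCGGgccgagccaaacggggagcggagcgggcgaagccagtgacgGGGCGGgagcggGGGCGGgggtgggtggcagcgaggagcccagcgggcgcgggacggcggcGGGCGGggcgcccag
S100a4: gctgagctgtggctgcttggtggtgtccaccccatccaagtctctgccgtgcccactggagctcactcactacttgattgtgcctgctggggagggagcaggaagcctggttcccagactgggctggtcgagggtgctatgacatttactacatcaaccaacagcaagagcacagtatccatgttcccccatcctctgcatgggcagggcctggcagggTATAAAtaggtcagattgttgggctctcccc
The Lhx2 window held the GC box core 4 times and the TATA letters 0 times. That of S100a4 held TATAAA with its first base 31 bases before the start and neither of the others. Promoters were matched for 9 of the 13 bulge genes called higher, and the CCAAT box was found in 5 of them, the TATA letters in 2 and the GC box core in 4. Among promoters of all tested genes that could be matched (10621) these shares were 36.8%, 6.53% and 59.5%, and among all 27025 promoters 34.5%, 13% and 32.9%.

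Some genes of the upper follicle and sebaceous gland were lower in old telogen. Of 30 genes tested 9 were lower and 0 higher by edgeR, against 1.03% of all tested genes in each direction, and at an unadjusted p under 0.05 the counts were 14 and 1. DESeq2 gave 9 lower and 0 higher, limma voom 5 and 0. The median log2 fold change was -0.69 and 26 of the 30 were below 0. Their summed level ran from 6295 to 11012 CPM in young and from 3764 to 8580 CPM in old libraries, so the sums overlapped. As for the bulge list, the members were chosen with earlier results of these data known.

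Of these 9, 4 encode enzymes of lipid metabolism. Mc5r, the melanocortin receptor of sebocytes, was at 42.1, 19.9 and 8.59 CPM in young replicates 1 to 3 and 1.40, 0.766 and 0.355 CPM in old replicates 1 to 3. It was near 0 in all 3 old libraries and spread widely in young, where replicate 1 was the highest and replicate 3 the lowest (log2 fold change -4.79, SE 0.82, adjusted p = 0.0049). Far2, a fatty acyl-CoA reductase that makes wax alcohols (ENSMUSG00000030303, GRCm39 chromosome 6, 147948757 to 148084256), was at 57.5, 29.5 and 23.1 CPM in young and 2.43, 5.36 and 3.43 CPM in old (log2 fold change -3.29, SE 0.53, adjusted p = 0.0039). Pparg, the nuclear receptor that drives sebocyte lipid synthesis, was at 27.1, 23.6 and 19.1 CPM in young and 2.30, 4.59 and 1.30 CPM in old (log2 fold change -3.09, SE 0.67, adjusted p = 0.021). The young libraries were close together for Pparg and all old ones were far below. Soat1, which esterifies cholesterol, was at 31.2, 32.5 and 10.4 CPM in young and 3.96, 5.87 and 6.98 CPM in old (-2.13, SE 0.48, adjusted p = 0.027). Scd1, the stearoyl-CoA desaturase, was at 686, 541 and 253 CPM in young and 91.2, 196 and 110.5 CPM in old (-1.89, SE 0.36, adjusted p = 0.012). Acsbg1, an acyl-CoA synthetase, was at 799, 431 and 437 CPM in young and 166, 183 and 179 CPM in old (-1.66, SE 0.31, adjusted p = 0.011), and the old libraries scarcely differed from each other. Plin2, which coats lipid droplets, came to -1.48, adjusted p = 0.038.

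Of the genes of the duct and junctional zone, Gata6, which directs cells of the duct, was at 91.3, 120.5 and 113 CPM in young and 38.95, 63.04 and 48.03 CPM in old (-1.11, SE 0.27, adjusted p = 0.04). Ly6d, a surface protein of the upper follicle, was at 183, 263 and 240.1 CPM in young and 84.9, 166 and 141 CPM in old (-0.81, SE 0.20, adjusted p = 0.048). Krt79, a keratin of the infundibulum, overlapped between ages, at 1302, 3641 and 2758 CPM in young and 771, 2921 and 1594 CPM in old (-0.54, adjusted p = 0.58). Krt17 (-0.06, adjusted p = 0.97), Fasn, the fatty acid synthase (-0.23, adjusted p = 0.7), Cst6 (-0.21, adjusted p = 0.91) and Lgr6 (0.22, adjusted p = 0.75) did not pass either.

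**Figure D3:**
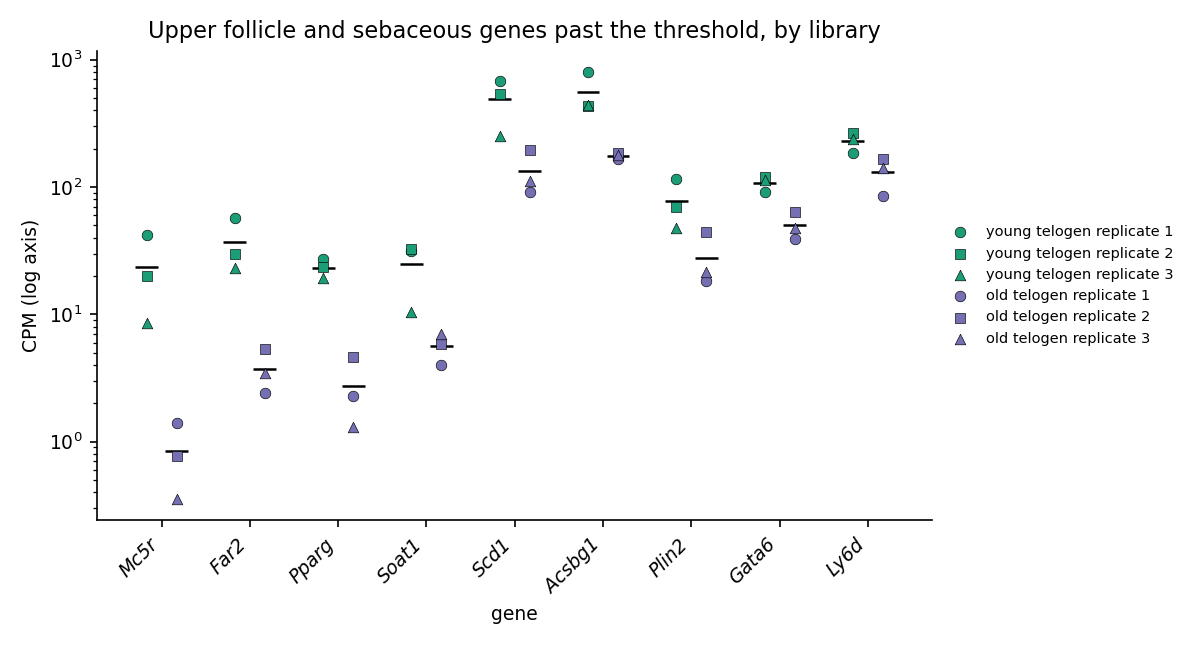
CPM on a log axis of the 9 upper follicle and sebaceous genes past the threshold, from the most to the least different. Marks and bars are as for the bulge genes. Old libraries lie below young ones for each gene, and Mc5r in old is near the level of single counts.

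This count also depended on single libraries, being 3 without young replicate 1, 4 without young replicate 2, 2 without old replicate 1 and 3 without old replicate 3. Without replicate 1 of both groups only Mc5r passed of the 30 (-4.65, adjusted p = 0.047), with Far2 at -2.59, adjusted p = 0.06, while the median of the list was -0.69 in that fit also. Mc5r, Far2, Pparg and Soat1 did not pass in limma voom.
The promoter windows of Acsbg1 and Far2, chosen as a pair of the lipid genes whose promoters the table holds, are given in the same way, from GRCm38.p6, at chr9:54661886-54662135 on the minus strand and chr6:148047166-148047415 on the plus strand.
Acsbg1: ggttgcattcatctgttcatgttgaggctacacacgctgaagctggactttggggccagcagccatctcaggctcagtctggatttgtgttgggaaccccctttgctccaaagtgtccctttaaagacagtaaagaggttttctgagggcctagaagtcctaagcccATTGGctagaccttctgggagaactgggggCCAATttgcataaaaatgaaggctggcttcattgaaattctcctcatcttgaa
Far2: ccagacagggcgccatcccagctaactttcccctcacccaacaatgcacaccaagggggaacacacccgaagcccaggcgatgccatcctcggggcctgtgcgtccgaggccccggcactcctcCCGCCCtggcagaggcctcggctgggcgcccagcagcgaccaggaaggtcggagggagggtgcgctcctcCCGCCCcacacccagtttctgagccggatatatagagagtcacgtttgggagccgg
Acsbg1 carried the CCAAT box once on each strand, and Far2 held the GC box core 2 times on the reverse strand. Of the 9 genes 5 were matched, and the CCAAT box was found in 3 of them, the TATA letters in 0 and the GC box core in 2.

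In signalling pathways the genes that passed were mostly receptors and secreted inhibitors. Of 61 Wnt genes 52 were tested, 6 were higher and 0 lower (13 and 4 at an unadjusted p under 0.05, 7 and 0 by DESeq2). Over all tested genes edgeR called 1.03% in each direction, and 6.9% were higher and 6.91% lower at an unadjusted p under 0.05. Both shares apply to the lists that follow. Besides Fzd7, Lgr5, Dkk3 and Sfrp1 the higher Wnt genes were the receptor Fzd2 and the ligand Wnt7b. Fzd2 was at 93.5, 90.6 and 85.3 CPM in young replicates 1 to 3 and 286, 170.4 and 216 CPM in old replicates 1 to 3 (log2 fold change 1.32, SE 0.18, adjusted p = 0.0013). The 3 young libraries were nearly equal. Wnt7b was low, at 17.9, 23.5 and 16.1 CPM in young and 29.8, 32.2 and 47.3 CPM in old (0.93, SE 0.23, adjusted p = 0.044), and did not pass in 5 of the 12 alternatives. Fzd2 and Sfrp1 passed without replicate 1 of both groups (1.13, adjusted p = 0.02 for Fzd2). The Wnt count was 2 without young replicate 1 or young replicate 2, 3 without old replicate 1. Wnt10b, a ligand of the activated germ, was at or under 2.68 CPM in every telogen library.

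Of 51 BMP and TGF-beta genes 49 were tested and 1 passed, Grem1, a secreted BMP antagonist (ENSMUSG00000074934, GRCm39 chromosome 2, 113576509 to 113588991). It was at 264, 232 and 186 CPM in young replicates 1 to 3 and 801, 392 and 743 CPM in old replicates 1 to 3 (log2 fold change 1.51, SE 0.22, adjusted p = 0.0026). Old replicate 2 lay between the young libraries and the other old ones. It passed in all 12 alternatives, with any 1 library left out and without replicate 1 of both groups (1.43, adjusted p = 0.02). DESeq2 called 3 of the list higher and 0 lower, and 9 and 3 had an unadjusted p under 0.05. The single edgeR call among 49 genes is near the 2.06% of all tested genes called in either direction. The ligands Bmp2 (0.48, adjusted p = 0.82) and Bmp6 (1.30, adjusted p = 0.52) and the targets Id1 (0.59, adjusted p = 0.46), Id2 (0.37, adjusted p = 0.58) and Id3 (0.54, adjusted p = 0.63) did not pass, and Bmp4 was at or under 3.29 CPM. Tgfb2, a ligand linked to germ activation, was at 8.28, 17.9 and 15.2 CPM in young and 32.2, 14.04 and 40.8 CPM in old (1.07, adjusted p = 0.31). In the hedgehog list Gas1 and Gli2, the activating transcription factor of the pathway (112, 138 and 182 CPM in young and 228, 257 and 233 CPM in old; 0.73, SE 0.18, adjusted p = 0.046), were the 2 higher among 14 tested of 16, and 0 were lower (6 and 1 at an unadjusted p under 0.05, 3 and 0 by DESeq2). Neither Gas1 (0.63, adjusted p = 0.18) nor Gli2 (0.61, adjusted p = 0.25) passed without replicate 1 of both groups. Shh itself had 2 counts in all telogen libraries together.

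Receptors of fibroblast growth factors differed in direction. Fgfr1 was at 384, 388 and 392 CPM in young replicates 1 to 3 and 736, 691 and 763 CPM in old replicates 1 to 3 (log2 fold change 0.91, SE 0.12, adjusted p = 0.00095). The 3 libraries of each age lay close to each other. Fgfr3 was at 104, 123 and 132 CPM in young and 219, 238 and 178 CPM in old (0.82, SE 0.17, adjusted p = 0.016). Fgfr2, the epithelial receptor of Fgf7 and Fgf10, was lower instead, at 449, 343 and 376 CPM in young and 255, 231 and 244 CPM in old (-0.68, SE 0.14, adjusted p = 0.016). Fgfr1 passed without replicate 1 of both groups (0.89, adjusted p = 0.013), while Fgfr3 (0.70, adjusted p = 0.17) and Fgfr2 (-0.60, adjusted p = 0.12) did not. Pdgfb, a growth factor for mesenchymal cells, was at 6.94, 12.8 and 9.44 CPM in young and 34.99, 14.4 and 43.4 CPM in old (1.67, SE 0.35, adjusted p = 0.017), old replicate 2 lying close to young replicate 2, and it did not pass in the same fit (1.37, adjusted p = 0.18). Fgf18, which the resting bulge makes, ranged from 2.81 CPM in old replicate 1 to 30.3 CPM in young replicate 3, and the ages overlapped in part (-0.91, adjusted p = 0.76). Of the 42 genes of the FGF and EGF list 31 were tested, 3 were higher and 1 lower, against 1.03% of all tested genes in each direction, and the median was -0.34.

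Binding proteins of insulin-like growth factors went in opposite directions. Igfbp7, a secreted protein also counted among senescence-associated factors (ENSMUSG00000036256, GRCm39 chromosome 5, 77497087 to 77555888), was at 17.04, 8.86 and 9.32 CPM in young replicates 1 to 3 and 50.7, 40.8 and 50.5 CPM in old replicates 1 to 3 (log2 fold change 2.01, SE 0.24, adjusted p = 0.00055). It was higher in all 3 old libraries by several times and passed without replicate 1 of both groups (2.32, adjusted p = 0.00024). Igfbp2 was at 28.7, 32.8 and 14.2 CPM in young and 2.55, 0.51 and 3.43 CPM in old (log2 fold change -3.53, SE 0.67, adjusted p = 0.011). Stc2, stanniocalcin 2, an inhibitor of the protease that frees IGF from its binding proteins, was at 100.4, 32.6 and 75.7 CPM in young and 10.1, 8.42 and 7.45 CPM in old (-3.01, SE 0.52, adjusted p = 0.0053). Both were several times lower in every old library, and neither passed without replicate 1 of both groups (Igfbp2 -3.56, adjusted p = 0.077, Stc2 -2.78, adjusted p = 0.071). Of the list's 19 genes 15 were tested, 1 was higher and 2 were lower, against 1.03% of all tested genes in each direction.

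Among matrix genes the direction depended on the protein. Of 44 interstitial and matricellular genes 34 were tested, 6 were higher and 3 lower, against 1.03% of all tested genes in each direction, with a median of 0.71. Fn1, fibronectin (ENSMUSG00000026193, GRCm39 chromosome 1, 71624679 to 71692359), was at 50.04, 53.7 and 144 CPM in young replicates 1 to 3 and 3.70, 4.98 and 2.96 CPM in old replicates 1 to 3. All old libraries were under 5 CPM and young replicate 3 was the highest of all (log2 fold change -4.41, SE 0.49, adjusted p = 0.00042). Tgm2, a transglutaminase that crosslinks matrix proteins, was at 34.2, 26.6 and 11.1 CPM in young and 2.43, 4.98 and 1.18 CPM in old (-3.06, SE 0.54, adjusted p = 0.006). Tnc, tenascin C, was at 79.3, 76.7 and 29.2 CPM in young and 7.41, 4.21 and 18.3 CPM in old (-2.62, SE 0.43, adjusted p = 0.004). The higher members were Postn, the thrombospondins Thbs1 (0.81, adjusted p = 0.016) and Thbs2 (1.15, adjusted p = 0.022), the fibrillar collagen gene Col5a2 (1.06, adjusted p = 0.0039), Fbln1 (1.12, adjusted p = 0.032) and Ecm1 (0.97, adjusted p = 0.0033). Fn1 passed under all settings, with -4.65, adjusted p = 0.0022 without replicate 1 of both groups, while Tgm2 (-2.62, adjusted p = 0.12) and Tnc (-2.23, adjusted p = 0.064) did not pass there. In that fit 1 member was higher and 1 lower. The number of higher members was 2 without young replicate 1, 2 without old replicate 1 and 3 without old replicate 3.

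In the hemidesmosome and basement membrane list, of 32 genes 30 were tested, 3 were higher and 3 lower, and the median was 0.02. The share of all tested genes was 1.03% in each direction. Lama5, the laminin chain of follicle basement membrane (0.75, adjusted p = 0.011), and Col18a1 (0.84, adjusted p = 0.039) were higher together with Col17a1. Lamb1, the laminin beta 1 chain, was lower, at 114, 67.05 and 34.4 CPM in young and 22.7, 14.04 and 4.38 CPM in old (-2.39, SE 0.46, adjusted p = 0.012). Fras1, which anchors embryonic basement membranes, was also lower, at 21.4, 21.3 and 15.00 CPM in young and 7.92, 4.34 and 2.01 CPM in old (-2.02, SE 0.49, adjusted p = 0.039). Frem1, a partner of Fras1, had 50 counts over the young and 1 over the old libraries, a ratio of 49.7 (95% exact counting interval 8.52 to 2002, counting error only). It was at 3.29, 0.257 and 2.54 CPM in young replicates 1 to 3 (edgeR adjusted p = 0.04). Frem1 passed in 7 of 12 alternatives and in 1 of the 6 fits with a library left out. Without replicate 1 of both groups it did not pass (-4.22, adjusted p = 0.28). Lamb1 passed without replicate 1 of both groups (-2.48, adjusted p = 0.02) and Fras1 (-2.53, adjusted p = 0.071) did not, and none of the 3 higher members did. Of 37 proteases and inhibitors 28 were tested, 2 were higher and 1 lower. Timp2, a metalloprotease inhibitor, was higher, at 244, 239 and 256 CPM in young and 609.8, 423 and 465 CPM in old (1.02, SE 0.17, adjusted p = 0.004), as was Plau, urokinase (1.59, adjusted p = 0.044). Adamts1, which cleaves versican, was lower, at 76.2, 81.2 and 108 CPM in young and 32.2, 23.7 and 33.5 CPM in old (-1.57, SE 0.26, adjusted p = 0.0039; without replicate 1 of both groups -1.73, adjusted p = 0.02). Timp2 (0.83, adjusted p = 0.065) and Plau (1.53, adjusted p = 0.21) did not pass in that fit.

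Markers of dermal fibroblasts and the dermal papilla were also higher in sum. Of the 15 markers 6 were at 0 in all 6 libraries (Alx4, Cd248, Corin, Lum, Pdgfrb and Sox2), and the sum of the list was 39.0 to 62.5 CPM in young and 87.4 to 138 CPM in old. Col1a2 made up most of it, with 29.4 CPM on average in young and 76.5 CPM in old, and Dcn and Col3a1 stayed near single counts. None of the 6 that could be tested passed by edgeR (2 higher at an unadjusted p under 0.05, 0 by DESeq2, 1 higher by limma voom), and the part of such cells in the matrix result was not tested. In the vessel list Cspg4, which bulge keratinocytes also make, was at 349, 307 and 334 CPM in young and 646, 494 and 594 CPM in old (0.81, SE 0.13, adjusted p = 0.0038). It gave nearly the whole sum, 311 to 349 CPM in young and 504 to 651 CPM in old, while Cdh5, Cldn5 and Kcnj8 were at 0. Flt1, a VEGF receptor, was at 0 in the young libraries and at 2.94, 7.53 and 2.96 CPM in old ones. Its 107 counts make it at least 35.9-fold higher in old, the young group being set at 3 counts in total. The smooth muscle gene Acta2 was at 0.243, 0 and 0 CPM in young and 4.21, 2.68 and 0.473 CPM in old, or 2 and 58 counts, a ratio of 29.2 (95% exact counting interval 7.72 to 247). Neither Flt1 nor Acta2 (edgeR adjusted p = 0.12) passed without replicate 1 of both groups. Immune markers summed to 9.25 to 36.2 CPM in young and 5.87 to 39.8 CPM in old, and 8 of the 23 were at 0. Nerve and Schwann markers summed to 29.0 to 55.0 and 55.4 to 69.2 CPM, melanocyte markers, mostly Mitf, to 129.9 to 156 and 148 to 219 CPM, and those of red blood cells and adipocytes to at most 2.96 CPM. Of 6 nerve and Schwann markers tested 0 passed by edgeR (2 higher and 0 lower at an unadjusted p under 0.05, 1 higher by DESeq2 and 1 by limma voom). Without replicate 1 of both groups 1 of them passed as higher. The part of such cells in the results was not tested.

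Of 28 hair germ genes 26 were tested, 1 was higher and 2 were lower, against 1.03% of all tested genes in each direction. Edar, the ectodysplasin receptor of the germ (ENSMUSG00000003227, GRCm39 chromosome 10, 58436611 to 58511476), was at 38.3, 20.3 and 7.74 CPM in young replicates 1 to 3 and 1.53, 0.638 and 0.118 CPM in old replicates 1 to 3 (log2 fold change -4.85, SE 0.72, adjusted p = 0.0025). It was close to 0 in each old library, and it passed without replicate 1 of both groups (-5.19, adjusted p = 0.011), but not in limma voom. Sox4, a transcription factor of progenitors, was at 34.6, 31.9 and 49.2 CPM in young and 22.3, 9.19 and 4.50 CPM in old (-1.69, SE 0.38, adjusted p = 0.029). Old replicate 1 was the highest old library for Sox4, and without replicate 1 of both groups the difference was -2.58, adjusted p = 0.0043. Cdh3, P-cadherin, which marks the germ, was higher, at 98.00, 98.3 and 117 CPM in young and 225, 182 and 153 CPM in old (0.84, SE 0.17, adjusted p = 0.016). Of 44 adhesion genes 41 were tested, 4 were higher and 0 lower (10 and 2 at an unadjusted p under 0.05, 6 and 0 by DESeq2), namely Cdh3, the integrin Itga2 (1.03, adjusted p = 0.009), Alcam (0.65, adjusted p = 0.027) and the desmosomal cadherin Dsg3 (0.60, adjusted p = 0.036), and none of them passed without replicate 1 of both groups. In the axon guidance list Nrp2, a semaphorin and VEGF co-receptor, was lower, at 116, 58.95 and 34.5 CPM in young and 17.4, 13.3 and 8.87 CPM in old (-2.41, SE 0.37, adjusted p = 0.003; without replicate 1 of both groups -2.09, adjusted p = 0.011). Slit3 (-1.07, adjusted p = 0.038) and Sema5a (-0.73, adjusted p = 0.023) were lower and Sema3d (1.84, adjusted p = 0.035) was higher among its 42 genes. None of these 3 passed without replicate 1 of both groups (Slit3 -0.73, adjusted p = 0.29, Sema5a -0.70, adjusted p = 0.12, Sema3d 1.95, adjusted p = 0.09).

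Both Cxcl12 and Cxcl14, secreted chemokines, were higher. Cxcl14, a chemokine of resting epithelium (ENSMUSG00000021508, GRCm39 chromosome 13, 56436456 to 56444364), was at 308, 185 and 246 CPM in young replicates 1 to 3 and 1047, 794 and 561 CPM in old replicates 1 to 3 (log2 fold change 1.70, SE 0.20, adjusted p = 0.00056). Old replicate 3 was the lowest of its group and still far above young replicate 1. Cxcl12, the ligand of Cxcr4, was at 171, 142 and 143 CPM in young and 359, 318 and 256 CPM in old (1.03, SE 0.17, adjusted p = 0.0042). Both passed without replicate 1 of both groups (Cxcl14 1.64, adjusted p = 0.0012, Cxcl12 0.998, adjusted p = 0.035). With Igfbp7 and Plau they were the 4 higher of 19 tested of 33 genes on the chemokine and senescence-associated secretion list, and 0 were lower (4 and 1 at an unadjusted p under 0.05, 4 and 0 by DESeq2). The share of all tested genes was 1.03% in each direction. Kitl, the stem cell factor on which melanocyte stem cells depend, was at 27.3, 25.05 and 24.6 CPM in young and 53.6, 34.5 and 24.96 CPM in old (0.56, adjusted p = 0.35), old replicate 3 lying within the young range.

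Few cell cycle genes passed. Of 47 genes 3 were lower and 0 higher (22 and 0 at an unadjusted p under 0.05, 6 and 0 by DESeq2, 1 and 0 by limma voom), and the median was -0.85, with 43 below 0. Over all tested genes 1.03% were called lower, and 6.91% were lower at an unadjusted p under 0.05. Cdk6, a kinase of G1, was at 161, 139 and 114 CPM in young and 78.8, 69.8 and 57.9 CPM in old (-1.01, SE 0.16, adjusted p = 0.0039), and passed without replicate 1 of both groups (-0.999, adjusted p = 0.02). Birc5, which encodes survivin, was at 18.6, 11.9 and 1.33 CPM in young and 0.383, 1.66 and 2.48 CPM in old (-2.79, SE 0.64, adjusted p = 0.031). Tyms, thymidylate synthase, was at 24.2, 18.9 and 10.2 CPM in young and 5.49, 8.04 and 9.70 CPM in old (-1.19, SE 0.30, adjusted p = 0.046). Neither passed there. Mki67, made by dividing cells, was at 574, 359.9 and 92.7 CPM in young and 226, 152 and 72.99 CPM in old (-1.19, adjusted p = 0.19). Young replicate 1 was far above young replicate 3, and young replicate 3 lay under old replicates 1 and 2. Without young replicate 3 the number lower was 18, without young replicate 1 or young replicate 2 it was 1, and without replicate 1 of both groups the median was -0.47. Rbl1, a retinoblastoma relative (-1.06, adjusted p = 0.031; without replicate 1 of both groups -0.70, adjusted p = 0.29), was the only gene lower of 35 p53 targets and cell cycle inhibitors, and 0 were higher (3 higher and 7 lower at an unadjusted p under 0.05, 1 and 2 by DESeq2). A single call among 35 genes is near the 2.06% of all tested genes called in either direction. Trp53 (-0.39, adjusted p = 0.3) and Cdkn1a (-0.63, adjusted p = 0.51) did not pass. Cdkn2a, which encodes p16, a cell cycle inhibitor that marks senescence, had 0 counts in all 6 telogen libraries, which allows up to 0.124 CPM over a group.

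**Figure D4:**
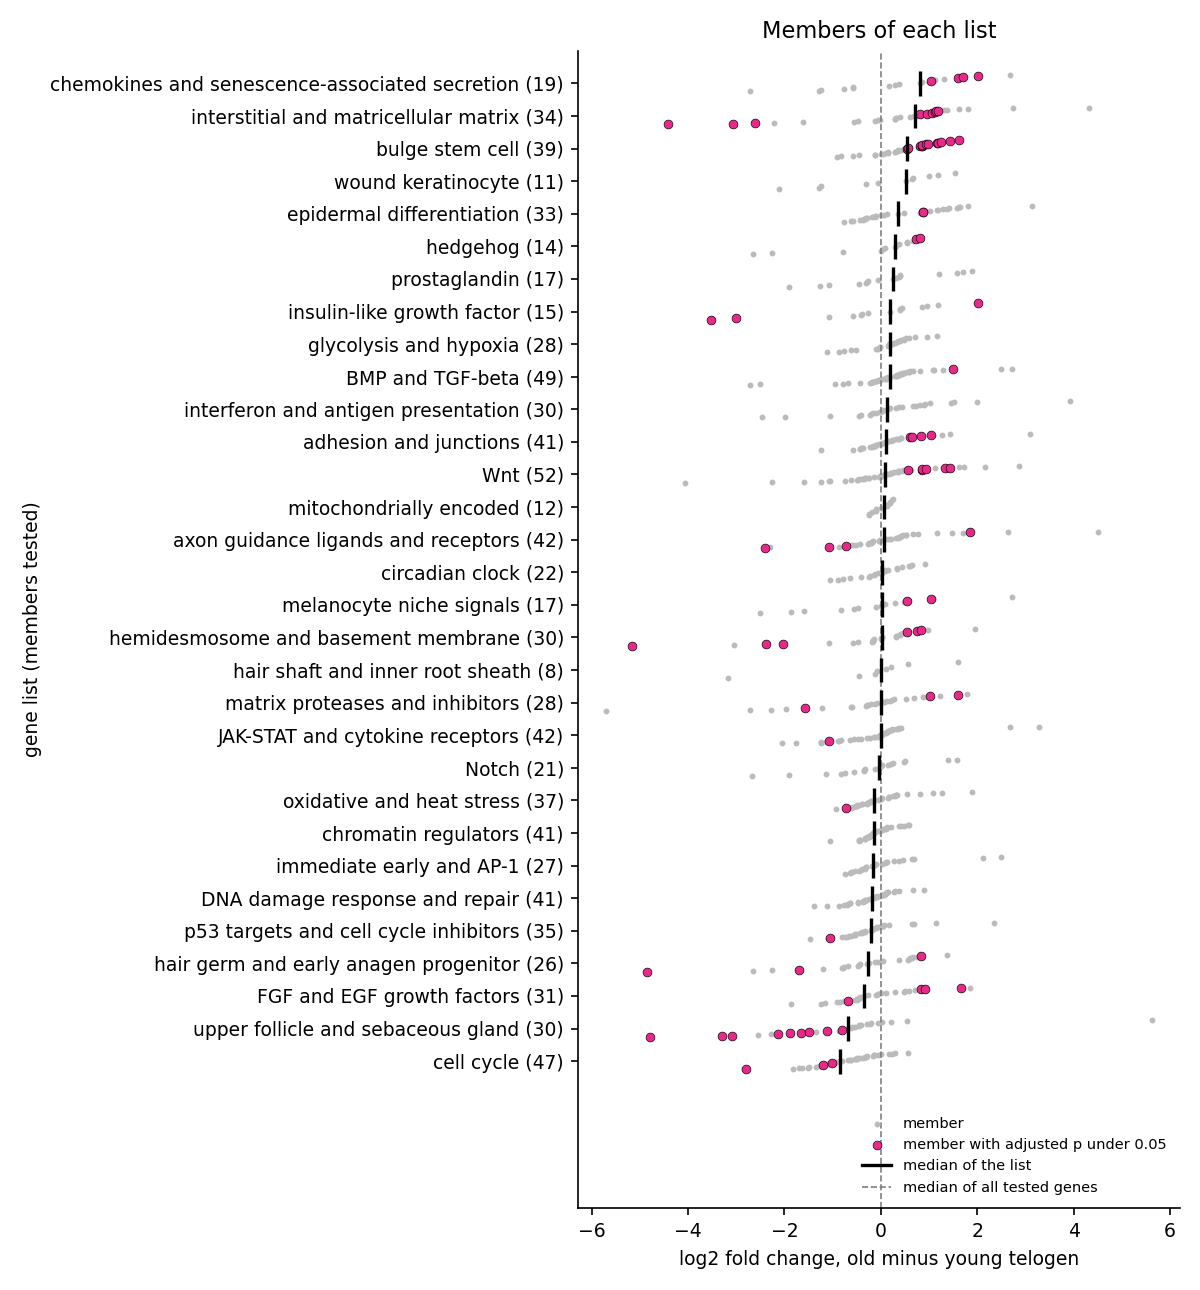
Log2 fold change, old minus young telogen, of each tested member (points) of 31 gene lists, ordered by their medians (black bars). Filled pink points passed the adjusted p of 0.05, the number tested is in brackets, and the dashed line is the median of all tested genes. Medians are 0.82 for the chemokine and secretion list, 0.71 for matrix and 0.55 for the bulge, and -0.69 and -0.85 for the upper follicle and cell cycle lists.

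Several pathways of interest in aged stem cells showed no gene past the threshold by edgeR. They were DNA damage response and repair (41 tested, 0 higher and 2 lower at an unadjusted p under 0.05, 1 lower by DESeq2), interferon and antigen presentation (30, 5 and 0, 0 by DESeq2) and Notch (21, 2 and 4, 2 lower by DESeq2). The same held for immediate early and AP-1 genes (27, 2 and 3, 1 each way by DESeq2), the circadian clock (22, 1 and 1, 1 lower by DESeq2) and glycolysis (28, 7 and 1, 1 each way by DESeq2). It also held for chromatin regulators (41, 3 and 3, 0 by DESeq2) and the mitochondrially encoded genes (12, 0 and 0, 0 by DESeq2). Over all tested genes 2.06% passed in either direction, and 6.9% were higher and 6.91% lower at an unadjusted p under 0.05. Fos (25.3, 121 and 176 CPM in young and 58.1, 77.3 and 106 CPM in old; -0.41, adjusted p = 0.8) and Junb (-0.19, adjusted p = 0.86), which respond to dissociation and stress, overlapped between ages. Ptgs2, the inducible cyclooxygenase (1.58, adjusted p = 0.49), and Edn1, the melanocyte growth factor endothelin 1 (2.73, adjusted p = 0.22), did not pass. In the JAK-STAT list 42 genes were tested, 0 were higher and 1 was lower (1 and 4 at an unadjusted p under 0.05, 0 and 2 by DESeq2), which is near that 2.06%. The lower one was Ifngr1, the interferon gamma receptor, at 120.4, 102 and 168 CPM in young and 55.7, 73.8 and 55.5 CPM in old (-1.08, SE 0.26, adjusted p = 0.038; without replicate 1 of both groups -1.07, adjusted p = 0.19). Stat3 was at 0.02, adjusted p = 0.98. Gstm1, a glutathione transferase, was the 1 of 37 oxidative and heat stress genes to pass, which is also near that 2.06%. It was at 144, 181 and 171 CPM in young and 111, 107 and 82.3 CPM in old (-0.73, SE 0.16, adjusted p = 0.022). Without replicate 1 of both groups Gstm1 passed as well (-0.91, adjusted p = 0.038).

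Krt5, the basal keratin, was at 4198, 3416 and 3042 CPM in young replicates 1 to 3 and 8048, 5015 and 6511 CPM in old replicates 1 to 3 (log2 fold change 0.88, SE 0.15, adjusted p = 0.0049). It passed with any 1 library left out and without replicate 1 of both groups (0.83, adjusted p = 0.014), though not after quantile normalization. With Calml3, a calmodulin-like protein (0.88, adjusted p = 0.04; without replicate 1 of both groups 0.69, adjusted p = 0.3), it made up the 2 higher of 33 genes tested on the epidermal differentiation list, and 0 were lower (7 and 0 at an unadjusted p under 0.05, 3 and 0 by DESeq2). The share of all tested genes called was 1.03% in each direction. The list summed to 10928 to 14624 CPM in young and 16476 to 17066 CPM in old libraries. Krt14, the partner of Krt5, was at 0.06, adjusted p = 0.91, and the suprabasal keratins Krt1 (1.81, adjusted p = 0.16) and Krt10 (1.02, adjusted p = 0.25) did not pass. The part of epidermal cells in the result was not tested.

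Among protein-coding genes past the threshold with separate groups and a mean FPKM of at least 5 in young, the largest decreases were those of Aadacl3, an arylacetamide deacetylase-like enzyme, at 41.4, 38.3 and 7.02 CPM in young and 0.639, 1.15 and 0.946 CPM in old (-4.96, SE 0.83, adjusted p = 0.0042), Edar, Mc5r and Fn1. Young replicate 3 was several times below the other young libraries for Aadacl3 and for Acoxl, an acyl-CoA oxidase-like enzyme (50.2, 34.4 and 13.4 CPM in young and 4.85, 0.128 and 0 CPM in old; -4.30, SE 1.002, adjusted p = 0.033). Ces1d, a carboxylesterase that releases stored lipid, was at 30.1, 19.3 and 23.96 CPM in young and 0.128, 3.70 and 0 CPM in old (-4.25, SE 0.95, adjusted p = 0.026), with old replicate 2 above the other old libraries. Clmp, a junctional adhesion protein (80.4, 46.6 and 19.00 CPM in young and 2.55, 10.5 and 2.13 CPM in old; -3.27, SE 0.59, adjusted p = 0.0068), was lower as well. So was Aldh1a7, an aldehyde dehydrogenase (34.1, 42.4 and 63.8 CPM in young and 7.79, 4.34 and 3.90 CPM in old; -3.13, SE 0.57, adjusted p = 0.0073). Of these 5, Aldh1a7 (-3.69, adjusted p = 0.024) and Acoxl (adjusted p = 0.0071, with 1 count left in old) passed without replicate 1 of both groups, and Ces1d, Clmp and Aadacl3 did not.

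The largest increases included Ndufa4l2, a hypoxia-responsive mitochondrial protein, at 5.97, 4.88 and 3.02 CPM in young and 47.9, 21.3 and 29.1 CPM in old (2.82, SE 0.50, adjusted p = 0.0059). Ppp1r3b, a glycogen-targeting phosphatase subunit, was at 7.43, 7.83 and 3.15 CPM in young and 59.1, 20.8 and 24.1 CPM in old (2.50, SE 0.48, adjusted p = 0.012). Vit, the matrix protein vitrin, was at 5.11, 4.37 and 7.26 CPM in young and 30.5, 19.9 and 42.5 CPM in old (2.47, SE 0.48, adjusted p = 0.012). Ppp1r3b was highest in old replicate 1 and did not pass without that library. Lmcd1, a LIM protein, was at 1.34, 2.95 and 2.42 CPM in young and 10.98, 10.1 and 14.8 CPM in old (2.41, SE 0.46, adjusted p = 0.011). Slitrk5, a neuronal-type transmembrane protein, was at 52.2, 30.7 and 49.2 CPM in young and 143, 161 and 152 CPM in old (1.78, SE 0.28, adjusted p = 0.0033), evenly high in old, and it passed without replicate 1 of both groups (1.96, adjusted p = 0.02). Piwil2, a Piwi protein of the germ line (1.81, adjusted p = 0.014), Plekhg1 (1.85, adjusted p = 0.016) and Shfl, an interferon-induced inhibitor of viral frameshifting (1.80, adjusted p = 0.02), did not pass there. Neither did Ndufa4l2 (2.66, adjusted p = 0.071), Ppp1r3b (2.03, adjusted p = 0.12), Vit (2.41, adjusted p = 0.12) or Lmcd1 (2.20, adjusted p = 0.086).

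Of the 72 genes past the threshold that the naming rule covers, 28 passed with each of the 6 libraries left out in turn. They included Aadacl3, Adamts1, Aldh1a7, Cdk6, Clmp, Cspg4, Cxcl12, Cxcl14, Edar, Far2, Fgfr1, Fn1, Fzd2, Grem1, Igfbp2, Igfbp7, Krt5, Lhx2, Mc5r, Ndufa4l2, Nrp2, Sfrp1, Slitrk5, Stc2, Tgm2, Timp2 and Tnc. All 72 kept their direction when 1 library was left out, which was nearly fixed beforehand, since they were chosen on these same libraries. Without young replicate 1, 40 no longer passed, at adjusted p-values of 0.051 to 0.18. These were Acoxl, Acta2, Alcam, Birc5, Calml3, Cdh3, Ces1d, Col17a1, Col18a1, Dkk3, Dsg3, Fgfr2, Fgfr3, Flt1, Fras1, Frem1, Gas1, Gli2, Ifngr1, Itga2, Lamb1, Lgr5, Lmcd1, Nfatc1, Pdgfb, Piwil2, Plau, Plekhg1, Postn, Pparg, Rbl1, Sema3d, Sema5a, Shfl, Slit3, Soat1, Sox4, Tyms, Vit and Wnt7b. Without young replicate 2, 34 no longer passed, at adjusted p-values of 0.052 to 0.19. These were Acoxl, Acta2, Alcam, Birc5, Calml3, Cdh3, Ces1d, Col17a1, Col18a1, Dkk3, Dsg3, Fgfr3, Flt1, Fras1, Gas1, Gli2, Gstm1, Ifngr1, Itga2, Lgr5, Ly6d, Nfatc1, Piwil2, Pparg, Rbl1, S100a4, Sema3d, Shfl, Slit3, Soat1, Sox4, Tyms, Vit and Wnt7b. Without young replicate 3, 13 no longer passed, at adjusted p-values of 0.051 to 0.13. These were Acta2, Alcam, Calml3, Col18a1, Frem1, Ifngr1, Ly6d, Plau, S100a4, Sema3d, Sema5a, Sox4 and Wnt7b. Without old replicate 1, 31 no longer passed, at adjusted p-values of 0.056 to 0.19. These were Acta2, Alcam, Birc5, Calml3, Cdh3, Ces1d, Col17a1, Col18a1, Dkk3, Dsg3, Fgfr3, Frem1, Gas1, Gli2, Ifngr1, Lgr5, Ly6d, Nfatc1, Pdgfb, Piwil2, Plau, Plekhg1, Postn, Pparg, Ppp1r3b, Rbl1, S100a4, Shfl, Slit3, Soat1 and Tyms. Without old replicate 2, 14 no longer passed, at adjusted p-values of 0.05 to 0.1. These were Acoxl, Acta2, Birc5, Fgfr3, Fras1, Frem1, Gli2, Plau, Rbl1, Sema3d, Sema5a, Soat1, Sox4 and Tyms. Without old replicate 3, 32 no longer passed, at adjusted p-values of 0.056 to 0.18. These were Acoxl, Alcam, Birc5, Calml3, Ces1d, Col17a1, Col18a1, Dsg3, Fgfr2, Fras1, Frem1, Gas1, Gli2, Gstm1, Ifngr1, Ly6d, Nfatc1, Pdgfb, Plau, Plekhg1, Postn, Pparg, Rbl1, S100a4, Sema3d, Sema5a, Slit3, Soat1, Sox4, Tyms, Vit and Wnt7b.

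Whether the age difference at rest differed from that in early anagen was tested with an interaction term in the same fit, as the telogen difference minus the early anagen difference. It passed for 250 genes, 1.56% of those tested, 89 above and 161 below 0. Of the 165 genes higher in old telogen it passed for 39, and of the 165 lower ones for 46. Among those 165 lower genes 68 had a log2 fold change above 0 in early anagen. These genes were chosen by their telogen difference, which the interaction contains. A raised share passing, and weaker or opposite values in early anagen, follow in part from that choice. The interaction counts above and below 0 were 37 and 66 without young replicate 2, 49 and 96 without old replicate 1 and 60 and 71 without old replicate 3.

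Lhx2 was higher in old telogen and at -0.67 in early anagen (interaction 1.93, SE 0.27, adjusted p = 0.0027). Lgr5 (-0.29 in early anagen, interaction 1.14, SE 0.27, adjusted p = 0.047), Fgfr3 (-0.70, 1.53, SE 0.24, adjusted p = 0.0061), Gli2 (-0.54, 1.28, SE 0.26, adjusted p = 0.02) and Cdh3 (-0.26, 1.10, SE 0.24, adjusted p = 0.031) had the same signs. The early anagen difference itself passed by edgeR for Fgfr3 (adjusted p = 0.029). It did not for Lhx2 (adjusted p = 0.057), Gli2 (0.11), Lgr5 (0.49) or Cdh3 (0.48), so a reversal with stage was not shown for these. Igfbp7 (0.09, 1.92, SE 0.32, adjusted p = 0.0074), Cxcl14 (0.29, 1.41, SE 0.28, adjusted p = 0.019) and Fgfr1 (0.01, 0.90, SE 0.16, adjusted p = 0.011) did not pass by age in early anagen either. On the lower side, Mc5r was at 0.31 in early anagen (-5.10, SE 1.06, adjusted p = 0.023), Far2 at 0.75 (-4.04, SE 0.70, adjusted p = 0.0083) and Ly6d at 1.32 (-2.13, SE 0.29, adjusted p = 0.0026). By edgeR the early anagen difference itself passed for Ly6d (adjusted p = 0.0025) and not for Mc5r (0.88) or Far2 (0.45). The median of the upper follicle and sebaceous list was -0.69 in telogen and 0.66 in early anagen, and 9 of its 30 members passed the interaction test. That of the bulge list was 0.55 in telogen and 0.36 in early anagen. Grem1 (1.54 in early anagen, -0.03, SE 0.31, adjusted p = 0.98) and Tnc (-2.73, 0.11, SE 0.58, adjusted p = 0.96) differed by age about equally in both stages.

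**Figure D5:**
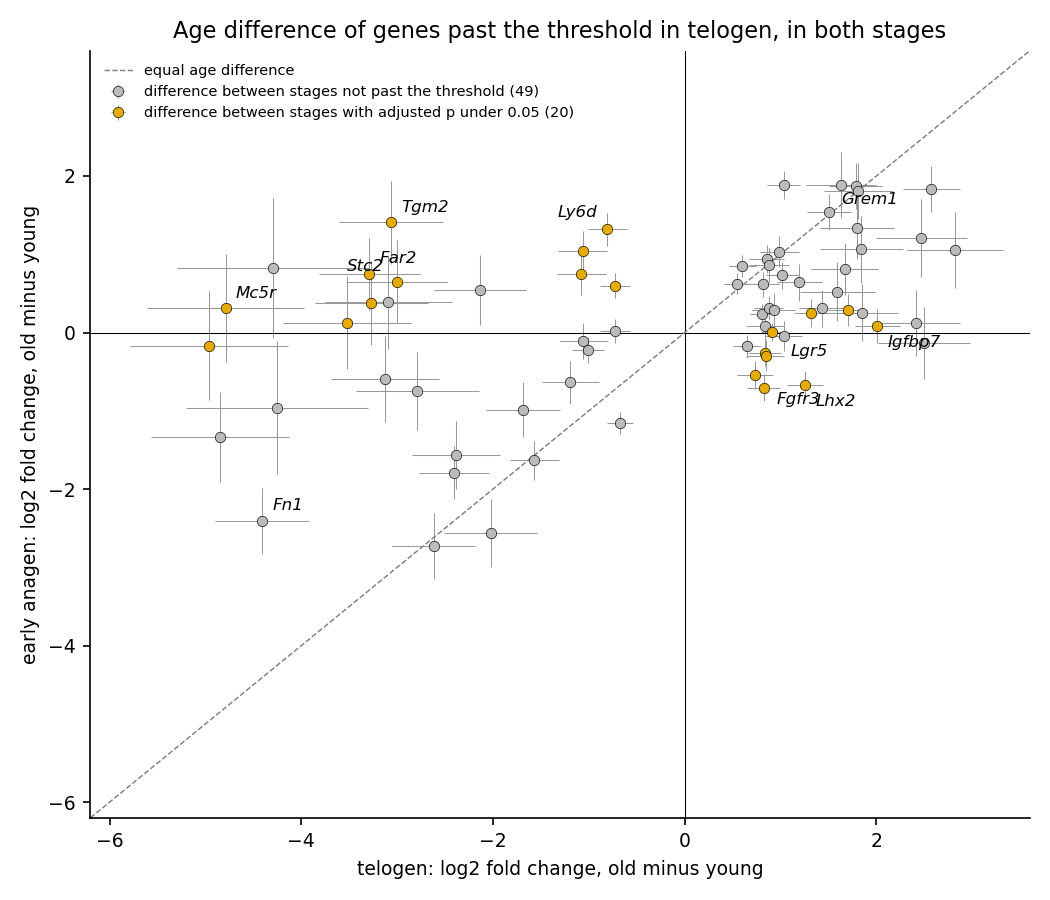
Log2 fold change, old minus young, in early anagen against that in telogen, for 69 named genes past the threshold in telogen, with bars of 1 SE. Yellow points are the 20 genes whose difference between the stages passed an adjusted p of 0.05, and the dashed line marks equal age differences. Frem1, Acta2 and Flt1, with 0 to 2 counts in young or old, are not drawn.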

How the data were processed

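RNA from sorted cells was purified on micro columns and, per the labels' protocols, made into libraries with the SMARTer stranded chemistry. Per the submitters' processing notes, the tools bcl2fastq 2.17.1.14, the trimmer cutadapt 1.9.1, the aligner HISAT2 2.0.1, the counter HTSeq 0.6.1 and the build GRCm39 are named; no source used here gives the strand setting of HTSeq, so reads of overlapping and antisense genes may be mixed. The authors deposited raw counts per gene, without normalization, and FPKM values, which equalled count over exonic length and library total within 0.005.

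Genes were kept with filterByExpr and tested on the counts with edgeR's quasi-likelihood test (edgeR 4.0.16, limma 3.58.1, R 4.3.3), 2-sided, on all 12 libraries with 1 mean per group, TMM factors and Benjamini-Hochberg adjustment over all 16011 genes. SE is the absolute log2 fold change over the square root of F, and CPM are counts over the TMM-scaled library totals. A 3 against 3 permutation test cannot go below an exact 2-sided p of 0.1, so single genes rest on the spread shared across genes by the model. The code was tested on simulated data.

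The members and the 39 lists were chosen with earlier results of these data known. Named genes are the 12 most raised and the 12 most lowered protein-coding genes past the threshold, given separate groups and an average FPKM of 5 or more in the group with the higher level, up to 4 genes per list past the threshold, and a set of ageing and niche genes. Further genes named in the list paragraphs (Vdr, Tcf7l1, Fasn, Cst6, Lgr6, Krt17, Krt14, Krt1, Krt10 and list members past the threshold beyond the first 4) and those of the closing section were chosen after their values were seen. Alternatives were RLE, upper quartile and quantile scaling, totals without mitochondrial genes, 2 other filters, DESeq2 1.42.0, limma voom with and without quality weights, the 6 telogen libraries alone, replicate blocks, and each telogen library left out. The replicate numbers were not used to pair the samples in the main fit, and the labels do not say whether they mark pairs. Some genes past the threshold are not reported here. Counting intervals and floors (3 counts) cover counting error only, since reads are not independent molecules. Mitochondrial ribosomal RNA took 7.52% to 12.3% of counts.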

Additional observations from a re-analysis of the deposited data

Results flagged for a closer look

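The age difference in telogen differed from that in early anagen, by edgeR's test of the interaction, in 23 of the named genes. Values are the telogen log2 fold change minus the early anagen one, so a negative value means that old minus young was lower at rest. For genes named because of their telogen difference, part of such a value follows from that choice. Among genes lower in old telogen these were Mc5r (-5.10), Far2 (-4.04) and Ly6d (-2.13) of the upper follicle and sebaceous list. Aadacl3 (-4.79), which is not on that list, was another. The matrix crosslinker Tgm2 (-4.47), the IGF-related genes Stc2 (-3.65) and Igfbp2 (-3.65) and the adhesion protein Clmp (-3.65) followed, with Slit3 (-2.10), Ifngr1 (-1.82) and Gstm1 (-1.32). Foxc1 (-1.32), a factor of bulge quiescence, did not differ past the threshold in telogen (-0.13) and was at 1.19 in early anagen.

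Among genes higher in old telogen they were the bulge and germ genes Lhx2 (1.93), Lgr5 (1.14) and Cdh3 (1.10), the receptors Fgfr1 (0.90), Fgfr3 (1.53) and Fzd2 (1.07), the hedgehog factor Gli2 (1.28) and the secreted Igfbp7 (1.92) and Cxcl14 (1.41). Kitl (1.58) and Id3 (2.39) did not pass in telogen (0.56 and 0.54), and were at -1.02 and -1.85 in early anagen.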

How the results depend on the processing

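Of 72 named genes past the threshold, 41 passed in all 12 alternatives and 28 with each of the 6 telogen libraries left out in turn. Without replicate 1 of both groups 23 passed. None changed sign in these settings, which choosing the genes on the same libraries made likely beforehand. Genes called higher and lower were 367 and 487 without a filter on low counts, 338 and 345 with DESeq2, 251 and 229 with a replicate block in the 6 telogen libraries, 45 and 51 without replicate 1, and 71 to 192 and 58 to 264 with 1 library left out. With the 6 telogen libraries alone they were 133 and 99. A replicate block in all 12 libraries gave 160 and 161. For the interaction, genes above and below 0 were 243 and 575 without a filter, 217 and 387 with DESeq2, 290 below 0 with voom quality weights, and 37 to 119 and 66 to 215 with 1 library left out. The share of higher against lower calls shifted most with limma voom with quality weights (223 and 113; 227 and 141 without the weights). Same-numbered young and old telogen libraries correlated in their deviations at 0.108, 0.0484 and 0.0408, each library highest with its own number, which is a hint from the data and not the design.

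Genes near 0 that did not pass changed sign in some settings. Itga6 (-0.0035) was 0.0095 with upper quartile factors, 0.0014 with limma voom, 0.0124 with quality weights, 0.0044 with the replicate block in 12 libraries, and 0.11, 0.05 and 0.04 without young replicate 1, old replicate 2 and replicate 1 of both groups (left-out libraries -0.0754 to 0.11). Stat3 (0.02) was -0.0432 with quality weights, and -0.08, -0.01 and -0.12 without young replicate 1, old replicate 1 and replicate 1 of both groups. With 1 library left out Fos ran from -0.88 to 0.14, Junb from -0.53 to 0.15, Wnt10b from -2.50 to 0.10 and Shh, with 2 counts, from -3.17 to 0.00. Genes under a few CPM rest on few reads, and 39348 genes were not tested.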

Other observations

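Among Hox genes, the homeobox factors of body position, 4 were higher in old telogen and 0 lower, in a family taken whole after its values were seen. Of 39 measured genes 24 were tested, against 1.03% of all tested genes called in each direction. The log2 fold change was above 0 in 22 and below in 1, and the median was 0.90, against 0.01 for all tested genes. Hoxa7 was at 30.9, 59.1 and 38.5 CPM in young and 119.9, 111 and 88.02 CPM in old (1.31, SE 0.21, adjusted p = 0.0039). Hoxc8 was at 17.5, 25.8 and 18.5 CPM in young and 70.6, 40.3 and 38.8 CPM in old (1.28, SE 0.25, adjusted p = 0.013). Hoxb8 was at 7.67, 12.7 and 5.93 CPM in young and 19.3, 24.2 and 25.9 CPM in old (1.40, SE 0.28, adjusted p = 0.014) and Hoxb6 at 13.03, 26.5 and 18.3 CPM in young and 36.02, 37.5 and 45.4 CPM in old (1.04, SE 0.25, adjusted p = 0.042). At an unadjusted p under 0.05 the counts were 10 and 0, and for the 4 genes the old libraries did not overlap the young ones. Neighbouring Hox genes overlap with antisense transcripts, so shared reads are possible. None of the 24 passed without replicate 1 of both groups, where the median was 0.77, and the median in early anagen was -0.15. Hox levels also differ between skin sites, and no source used here names the skin site of the samples.

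Some genes of actin bundles were higher. Of 42 tested genes that the deposited table annotates to stress fibres, 5 were higher and 2 lower, with a median of 0.17, and 12 and 4 had an unadjusted p under 0.05. Over all tested genes 1.03% were called in each direction. The higher ones were Vcl, which encodes vinculin (0.76, adjusted p = 0.034), Tpm1 (0.71, adjusted p = 0.026), Enah (0.87, adjusted p = 0.0056), Synpo (0.92, adjusted p = 0.017) and Myh10 (1.52, adjusted p = 0.019). Without replicate 1 of both groups 0 of them passed higher and 2 lower. The lower ones were Lasp1 (-0.82, adjusted p = 0.041) and Septin11 (-1.16, adjusted p = 0.0033). Trpv4, a calcium channel that responds to mechanical and osmotic stimuli, was at 86.3, 82.2 and 64.2 CPM in young and 186, 138 and 158 CPM in old (1.05, SE 0.18, adjusted p = 0.0049). Of 19 tested genes annotated to cholesterol synthesis, Hmgcs1, an early enzyme of the pathway, was lower, at 254, 228 and 206 CPM in young and 93.9, 152 and 129 CPM in old (-0.88, SE 0.19, adjusted p = 0.022), while Cyb5r3 was higher (0.92, adjusted p = 0.0025) and the median was -0.10. C3, the complement component that sebaceous and skin epithelia make, was at 39.3, 31.6 and 7.62 CPM in young and 0.766, 0.893 and 0.237 CPM in old (-5.35, SE 0.88, adjusted p = 0.004). C3 (-5.10, adjusted p = 0.054) and Hmgcs1 (-0.64, adjusted p = 0.21) did not pass without replicate 1 of both groups.

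Abi3bp, a secreted matrix protein, was at 405, 403 and 389 CPM in young replicates 1 to 3 and 95.4, 106 and 104 CPM in old replicates 1 to 3, with little spread within each age (log2 fold change -1.97, SE 0.15, adjusted p = 6.6e-06). Without replicate 1 of both groups it passed as well (-1.92, adjusted p = 0.00024), and in early anagen the age difference was 0.42 (interaction -2.39, SE 0.21, adjusted p = 2.7e-05).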
